A study of Homo sapiens with 22 samples.

Results

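A set of 8 genes of cholesterol synthesis, chosen by symbol, was followed through the reprogramming of human BJ fibroblasts to induced pluripotent stem cells: 6 enzymes (HMGCS1, IDI1, FDFT1, SQLE, SC5D and DHCR7) and 2 regulators of the pathway (INSIG1 and SREBF2). They are 8 of the 33694 genes counted, and all 8 were among the 12794 genes that passed the filter on low values, a UMI (unique molecular identifier, which stands for 1 captured RNA molecule) in at least 5% of the cells kept. BJ is an established line of foreskin fibroblasts. On D0 the cells were untransfected and grown in DMEM with fetal bovine serum. From day 1 to the end the cells were kept in microfluidic chambers at low oxygen. Until day 8 they were in supplemented Pluriton medium and received 8 nightly transfections of mRNA for OCT4, SOX2, KLF4, MYC, LIN28 and NANOG. From day 9 the medium was StemMACS iPSBrew XF and no mRNA was given. D3, D5 and D7 therefore lie before the change of medium and D11, D13 and D15 after it, while for D9 it is not stated whether cells were harvested before or after the change. The new medium and the end of the transfections coincide and cannot be told apart. Each day is represented by 2 pools of cells, A and B, each made from several chips of the same line, and all cells were frozen before capture.

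Cholesterol is built from acetyl-CoA through the mevalonate pathway, squalene and a series of sterols. Its supply is sensed at the endoplasmic reticulum: when sterols are scarce, the membrane-bound factor SREBP-2, the product of SREBF2, is escorted by SCAP to the Golgi, cleaved, and enters the nucleus to raise transcription of nearly every enzyme of the pathway, and when sterols are plentiful INSIG proteins hold it back. INSIG1 is itself a target of SREBP-2, so that its RNA falls and rises with the enzymes in many cultured cells. Serum brings lipoprotein cholesterol to fibroblasts in culture. Neither sterol levels nor SREBP-2 cleavage were measured here.

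The 16 pools held 571 to 6142 cells and 33181614 to 180056814 UMIs, with a median of 23717 to 80168 UMIs per cell. Expression is given as CPM, the UMIs of a gene scaled to a pool total of 1000000. In a summed pool, fewer cells of a kind and less RNA per cell cannot be told apart. All 20 somatic markers were above 1 CPM in the D0 pools, where 3 of 19 pluripotency markers and 6 of 9 mesendoderm markers were at 0. No pair of libraries shared more than 2.11% of the barcodes of the smaller one.

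Libraries differed in the cholesterol genes even within a day. Pools A and B of a day differed by a median of 0.17 on the log2 scale over the 8 genes on 6 of the days, but by 0.68 on D3 and 0.63 on D13. Pool B of D3 and pool B of D13 had fewer UMIs per cell than their pools A (28763 against 46201, and 35610 against 54703) and a higher median share of mitochondrial UMIs (4.41% against 2.67%, and 5.49% against 3.55%). The same held for pool B of D5 and of D15, where the genes differed by a median of 0.34 and 0.24. These had 39563 against 44477 and 29973 against 57141 UMIs per cell. Their mitochondrial shares were 3.65% against 2.38% and 6.22% against 5.69%. Of the pools, 6 had been captured as 2 aliquots, and 1 aliquot differed from the other of the same pool by a median of 0.37 over the 8 genes, against 0.29 over the 7052 genes at a mean of 10 CPM or more. The widest gap was that of DHCR7 in pool A of D5, with 115 CPM in aliquot 1 and 40.9 in aliquot 2. In the same pool IDI1 stood at 206 and 79.5 CPM. Aliquot 2 of that pool was the deeper, at a median of 62932 UMIs per cell against 41781. Its mitochondrial share was 4.40% against 2.25%. A difference of 2-fold in 1 of these genes between 2 libraries is thus within what aliquots of 1 pool showed.

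**Figure D1:**
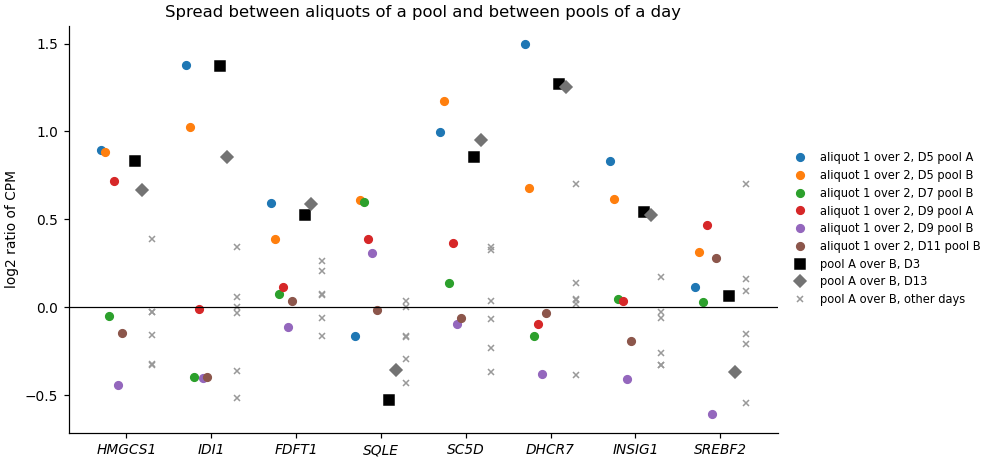
Log2 ratio of CPM for each of the 8 genes, between the 2 aliquots of 6 divided pools (circles), between pools A and B of D3 and D13 (squares and diamonds) and between pools A and B of the other days (crosses). The aliquots of the D5 pools and the pools of D3 and D13 spread most, up to a ratio of 1.496 on the log2 scale for DHCR7, while most crosses lie closer to 0.

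During reprogramming 5 of the 8 genes fell by edgeR's quasi-likelihood test, among 45.8% of all genes tested called across the change of medium, 23.0% lower. HMGCS1, IDI1, FDFT1, DHCR7 and INSIG1 were lower on D11, D13 and D15 than on D3, D5 and D7, and lower on D15 than on D0, whereas SQLE, SC5D and SREBF2 were not called in either comparison. With the mitochondrial share of the pool as a covariate, HMGCS1, IDI1 and DHCR7 lost their call across the change of medium and SQLE gained one. INSIG1 fell most, from 202 ± 5.96 CPM on D0 to 22.5 ± 3.59 on D15 (mean ± SD, n = 2 pools), a ratio of 8.99. In edgeR's test no single interval between sampled days, those on either side of day 9 included, carried a called change of any of the 8 genes, while DESeq2 called 2 on D3 against D0 and 1 on D5 against D3, where it called 34.1% and 6.95% of all genes tested.

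HMGCS1, IDI1 and FDFT1, enzymes of the first part of the pathway, were highest on D0 and low on D13 and D15. HMGCS1 (HMG-CoA synthase, an early enzyme of the mevalonate pathway; ENSG00000112972, chromosome 5 from 43287470 to 43313512, minus strand, GRCh38) was measured in pools A and B at 149 and 152 CPM on D0, 117 and 65.9 on D3, 95.9 and 73.2 on D5, 63.9 and 80.1 on D7, 66.5 and 67.7 on D9, 58.9 and 74.0 on D11, 54.6 and 34.4 on D13 and 34.9 and 39.0 on D15. The D0 pools were the highest, the pools of D7 to D11 lay between 58.9 and 80.1 CPM, and 5 of the 6 pools of D11 to D15 were below every pool of D3 to D7. IDI1 (isopentenyl diphosphate isomerase, which supplies the activated isoprene units; ENSG00000067064, chromosome 10 from 1039152 to 1049119, minus strand) stood at 222 and 213 CPM on D0, 221 and 85.2 on D3, 180.0 and 142 on D5, 149 and 149 on D7, 129.8 and 133 on D9, 97.4 and 126 on D11, 93.8 and 51.8 on D13 and 36.5 and 52.1 on D15. Pool B of D3 was low for IDI1, below every pool up to D11, and 3 of the 6 later pools were below it. FDFT1 (squalene synthase, the first step that belongs to sterols alone; ENSG00000079459, chromosome 8 from 11795573 to 11839395, plus strand) was at 452 and 431 CPM on D0, 409 and 285 on D3, 302 and 287 on D5, 309.6 and 258 on D7, 266 and 278 on D9, 284 and 246 on D11, 203 and 135 on D13 and 149.8 and 167 on D15. It stayed between 246 and 309.6 CPM from D5 to D11, and all 4 pools of D13 and D15 were below that band.

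SQLE (squalene epoxidase, an oxygen-dependent and rate-limiting step; ENSG00000104549, chromosome 8 from 124998497 to 125022283, plus strand) was not called with all pools in 1 fit and no covariate. Its values were 221 and 215 CPM on D0, 151 and 217 on D3, 150.0 and 184 on D5, 163 and 183 on D7, 149.8 and 168 on D9, 150.4 and 203 on D11, 105 and 135 on D13 and 177 and 177 on D15. The D15 pools, at 177 CPM on average, were within the range of the pools of D3 to D7, and the lowest pools were those of D13. On D3 and on D13 pool B was above pool A for SQLE, whereas HMGCS1, IDI1, FDFT1, SC5D, DHCR7 and INSIG1 were lower in pool B on both days.

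The late enzymes differed from one another. DHCR7 (7-dehydrocholesterol reductase, the last step of one branch; ENSG00000172893, chromosome 11 from 71428193 to 71452868, minus strand) was at 108 and 105 CPM on D0, 148 and 61.2 on D3, 99.9 and 61.5 on D5, 91.3 and 82.9 on D7, 71.4 and 70.4 on D9, 60.2 and 58.4 on D11, 57.8 and 24.2 on D13 and 26.4 and 34.6 on D15. Its 6 pools of D11 to D15 were all below its 6 pools of D3 to D7, although the highest of the later pools, 60.2 CPM, was close to the lowest of the earlier ones, 61.2 CPM. SC5D (lathosterol oxidase, the step before DHCR7; ENSG00000109929, chromosome 11 from 121292681 to 121313410, plus strand) was at 30.4 and 29.6 CPM on D0, 31.6 and 17.5 on D3, 43.8 and 34.5 on D5, 34.8 and 27.8 on D7, 54.2 and 56.9 on D9, 37.9 and 44.6 on D11, 46.6 and 24.1 on D13 and 18.7 and 24.2 on D15. Both D9 pools were above every other pool, and both D15 pools were below the D0 pools. The difference between D7 and D9 had a log2 fold change of 0.79 with SE 0.28 and was not called (adjusted p = 0.079, edgeR).

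Of the regulators, INSIG1 fell and SREBF2 was not called. INSIG1 (a sterol-responsive retention protein that holds SCAP and SREBP in the endoplasmic reticulum; ENSG00000186480, chromosome 7 from 155297776 to 155310235, plus strand) was at 198 and 206 CPM on D0, 157 and 108 on D3, 81.4 and 72.3 on D5, 48.4 and 60.8 on D7, 39.6 and 40.3 on D9, 40.2 and 48.2 on D11, 30.3 and 21.1 on D13 and 19.9 and 24.99 on D15. All pools from D5 on were below both D3 pools, and all 6 pools of D11 to D15 were below all 6 of D3 to D7. The highest of the later pools, 48.2 CPM, was close to the lowest of the earlier ones, 48.4 CPM. The share of all genes with pools apart in this way, as for DHCR7 and INSIG1, is not given here. SREBF2 (ENSG00000198911, chromosome 22 from 41833105 to 41907306, plus strand) was at 25.3 and 29.2 CPM on D0, 21.9 and 20.9 on D3, 29.5 and 18.2 on D5, 18.1 and 26.4 on D7, 20.9 and 18.7 on D9, 17.9 and 19.8 on D11, 17.9 and 23.1 on D13 and 20.01 and 18.8 on D15. The range over all 16 pools was 17.9 to 29.5 CPM, and the pools of D11 to D15 lay within or just below the range of those of D3 to D7.

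**Figure D2:**
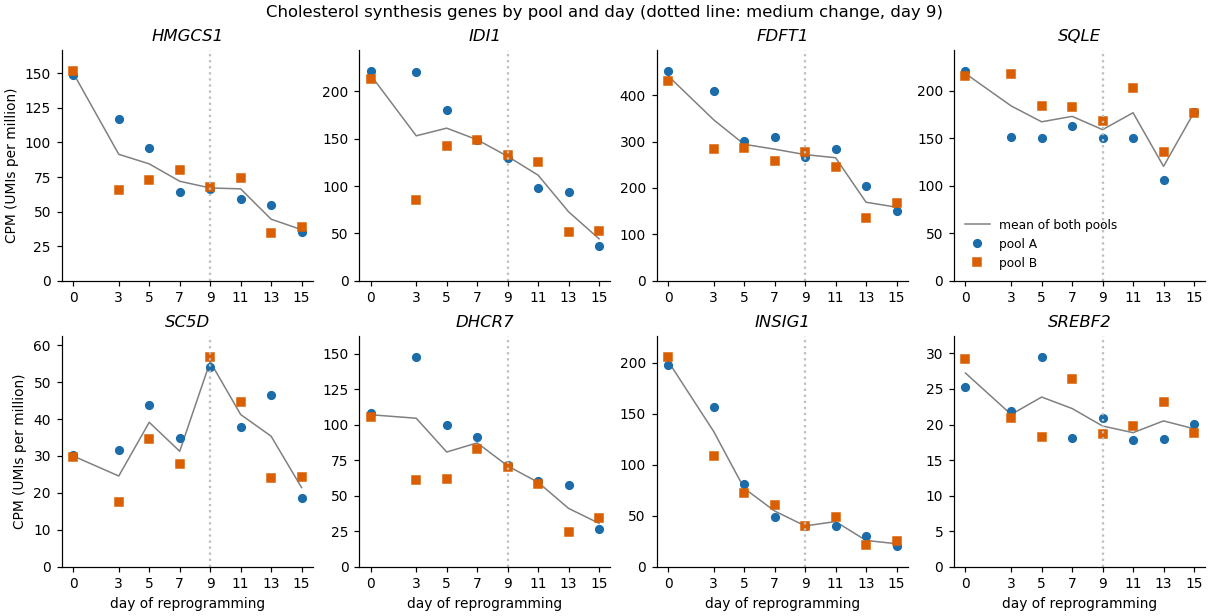
CPM of each gene (vertical axes from 0, a scale of its own per gene) against day of reprogramming, with pool A as circles, pool B as squares, and the mean as a line. HMGCS1, IDI1, FDFT1, DHCR7 and INSIG1 lie highest in the D0 or D3 pools and lowest in those of D13 or D15, SC5D is highest on D9 at 54.2 and 56.9 CPM, and the D15 pools of SQLE and SREBF2 lie within the range of those of D3 to D7. The dotted line marks the change of medium.

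The start of each gene was examined in RefSeq promoters of GRCh38.p14, because SREBP-2 and its partner NF-Y act through short DNA letters there. Promoters were found for 6 of the 8 genes (11 starts), and the 250 bases before each start were searched on both strands. The sterol regulatory element type TCACNCCAC, present in 0.883% of all 35116 promoters, was found in that of SREBF2 alone. The E-box type TCACNTGA, present in 3.20% of all promoters, was found in that of INSIG1 alone. CCAAT, the NF-Y box, was found in 8 of the 11 promoters and at a start of each of the 6 genes (the 2 SC5D starts lie close together and hold the same match, counted at both), against 32.0% of all promoters. The matched letters are a description of these windows and not evidence of binding. Only these exact letters were searched, in these windows only, so the lack of a match is not evidence that an element is absent. A stretch each of INSIG1, HMGCS1 and SREBF2 is shown, for the match in the gene that fell most, the NF-Y box of an enzyme that fell, and the sterol-type match of a regulator that was not called. Capitals mark the match, which for HMGCS1 is CCAAT read on the opposite strand. For SREBF2 the whole 250 bases before its start are given, and capitals there mark the sterol regulatory element type followed by CCAAT on the opposite strand.
INSIG1, chr7:155297811-155297840, plus strand: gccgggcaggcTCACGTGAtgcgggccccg
HMGCS1, chr5:43313550-43313579, minus strand: agtttccttttgATTGGtagaagccggact
SREBF2, chr22:41832855-41833104, plus strand: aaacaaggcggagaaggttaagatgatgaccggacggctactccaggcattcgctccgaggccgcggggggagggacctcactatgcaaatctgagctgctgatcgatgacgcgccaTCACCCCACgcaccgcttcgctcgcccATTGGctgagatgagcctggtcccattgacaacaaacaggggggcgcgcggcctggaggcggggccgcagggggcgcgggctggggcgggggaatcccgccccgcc

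Days before and after the change of medium were compared in summed UMIs with edgeR's quasi-likelihood test, all 16 pools in 1 fit. A gene was called at a Benjamini-Hochberg adjusted p below 0.01, over all genes tested, and a log2 fold change beyond 0.25. Its p-values measure the spread between pools, which are pooled chips of 1 line and were not independent derivations from several donors. Between D3 to D7 and D11 to D15, 5 of the 8 genes were called lower and 0 higher, while 45.8% of all genes tested were called, 23.0% lower. The log2 fold change was −1.51 (SE 0.11, adjusted p = 1.4e-07) for INSIG1, −1.14 (SE 0.19, adjusted p = 2.6e-04) for IDI1, −1.13 (SE 0.21, adjusted p = 6.0e-04) for DHCR7, −0.81 (SE 0.14, adjusted p = 2.3e-04) for HMGCS1 and −0.70 (SE 0.11, adjusted p = 1.3e-04) for FDFT1. It was −0.22 (SE 0.14, adjusted p = 0.20) for SREBF2, −0.20 (SE 0.14, adjusted p = 0.24) for SQLE and −0.012 (SE 0.16, adjusted p = 0.95) for SC5D. The median was −0.76 over the 8 genes and −0.019 over all genes tested. The mean of the D11 to D15 pools was 0.350 times that of the D3 to D7 pools for INSIG1, 0.480 for DHCR7, 0.494 for IDI1, 0.597 for HMGCS1 and 0.641 for FDFT1. The same 5 genes were called with each of the 16 pools left out in turn.

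Other measures moved across the same days. The summed CPM of the 20 somatic markers was 4904 to 9371 in the D3 to D7 pools and 1761 to 6902 in the D11 to D15 pools, that of the 19 pluripotency markers 68.4 to 665 and 2748 to 3638, and that of the 9 mesendoderm markers 0.358 to 0.925 and 110.2 to 231. The 14 genes of dividing cells summed to 679 to 1109 and 811 to 1129 CPM, ranges that overlap. The median mitochondrial share was 2.38% to 4.41% before and 3.45% to 6.22% after. With this share as a covariate, an alternative added after the values were seen, 3 of the 8 genes were called, all lower. It is a share no larger than the 42.4% of all genes tested called in either direction. The share of all genes called lower in that fit is not given here. INSIG1 was −1.31 and FDFT1 −0.56, SQLE was called at −0.53, and HMGCS1, IDI1 and DHCR7 were −0.44, −0.62 and −0.49 without a call. The part of these measures in the result was not otherwise tested. With only aliquot 1, or only aliquot 2, of the divided pools the same number of genes, 5, was called. The count over all genes in these runs is not given here.

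D0 and D15 differ in medium, transfection and cell state at once, and the oxygen level of the D0 cells is not stated. Between D0 and D15, 5 of the 8 genes were called lower, among 53.4% of all genes tested called and 26.7% called lower. The log2 fold change was −3.23 (SE 0.21, adjusted p = 5.1e-08) for INSIG1, −2.35 (SE 0.35, adjusted p = 7.2e-05) for IDI1, −2.09 (SE 0.24, adjusted p = 8.9e-06) for HMGCS1, −1.87 (SE 0.38, adjusted p = 8.4e-04) for DHCR7 and −1.54 (SE 0.19, adjusted p = 1.7e-05) for FDFT1. SREBF2, at −0.55 (SE 0.24, adjusted p = 0.064), SC5D, at −0.55 (SE 0.28, adjusted p = 0.10), and SQLE, at −0.36 (SE 0.24, adjusted p = 0.20), were not called in this fit. With only the 4 pools of D0 and D15 in the fit all 8 genes were called lower, and 74.0% of all genes tested were called. With the mitochondrial share as a covariate, which called 5 of the 8 genes and 47.5% of all genes, DHCR7 was −0.53 and lost its call, and SQLE was −1.10 and gained one.

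No interval between adjacent days carried a called change of the 8 genes by edgeR. Among all genes tested, 25.6% were called on D3 against D0, 3.56% on D5 against D3, 2.06% on D7 against D5, 7.37% on D9 against D7, 4.09% on D11 against D9, 0.117% on D13 against D11 and 0.0860% on D15 against D13. At an unadjusted p below 0.05 the number of the 8 genes was 2, 2, 1, 2, 0, 3 and 2 in these intervals, against 49.1%, 19.7%, 16.1%, 26.9%, 24.2%, 16.2% and 23.2% of all genes tested. DESeq2 called 2, 1, 0, 0, 0, 0 and 0 of the 8, against 34.1%, 6.95%, 4.77%, 12.9%, 9.36%, 3.70% and 5.11% of all genes tested. Across the change of medium, from D7 to D11, 0 of the 8 genes were called by edgeR or DESeq2, and 0 were at an unadjusted p below 0.05. Over all genes tested these shares were 11.5% by edgeR, 16.9% by DESeq2 and 29.3% at an unadjusted p below 0.05. The log2 fold changes of the 8 genes from D7 to D11 lay between −0.61 for DHCR7 and 0.34 for SC5D, with SE of 0.19 to 0.37. With 2 pools per day, many changes of about 2-fold in such a comparison would not be called. INSIG1 had an unadjusted p below 0.05 in each of the 4 intervals from D0 to D9.

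**Figure D3:**
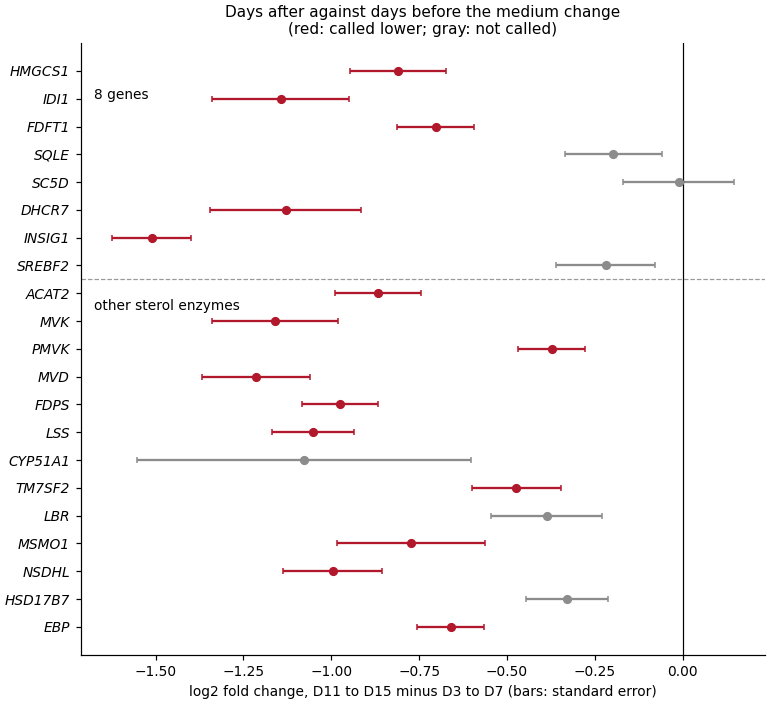
Log2 fold change between D3 to D7 and D11 to D15, with its standard error, for the 8 genes (above the dashed line) and 13 other sterol enzymes (below it), red where called lower and gray where not called. INSIG1 lies lowest at −1.51, and SC5D lies nearest to 0 at −0.012.

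In HMGCS1, IDI1, FDFT1, SC5D, DHCR7 and INSIG1 the D13 and D15 means were below the D9 and D11 means. Steps on both sides of D9 and D11 were compared, a choice made after the values were seen. From D5 and D7 to D9 and D11, the step that spans the medium change, 1 of the 8 genes was called, INSIG1 at −0.67 (SE 0.14, adjusted p = 0.0021), against 9.96% of all genes tested called lower and 21.2% in either direction. From D9 and D11 to D13 and D15 (the medium of the D9 cells at harvest is not stated) 3 were called, against 7.51% called lower and 15.7% in either direction. These were IDI1 at −1.04 (SE 0.24, adjusted p = 0.0065), INSIG1 at −0.75 (SE 0.14, adjusted p = 0.0016) and FDFT1 at −0.66 (SE 0.13, adjusted p = 0.0033). HMGCS1, SC5D and DHCR7 had −0.66 (SE 0.17, adjusted p = 0.011), −0.75 (SE 0.20, adjusted p = 0.013) and −0.83 (SE 0.26, adjusted p = 0.031). The median over the 8 genes was −0.28 for the first step and −0.71 for the second. The steps themselves were not shown to differ: 0 of the 8 genes were called for the difference between them by edgeR or DESeq2, and 2 had an unadjusted p below 0.05. Over all genes tested these shares were 6.46%, 10.9% and 23.3%. The count of 3 for the second step ranged from 0, without pool A of D15, to 6, without pool A of D13 or without either pool of D3. The number of all 12794 genes called moved with it, from 2008 with all pools to 1090 without pool A of D15 and 3273, 2476 and 2472 without pool A of D13 and pools A and B of D3. The count was 1 without either pool of D9, pool A of D11 or pool B of D13, with 1069 to 1476 of all genes called, and 0 with the mitochondrial share as a covariate, with 11.2% of all genes called. The mitochondrial share was 3.55% to 6.22% in the D13 and D15 pools and 3.09% to 4.12% in the D9 and D11 pools. The step of INSIG1 across the medium change was not called without pool B of D7, either pool of D9 or pool A of D11.

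The cells of each pool were also read one by one. The median over cells of the summed CPM of the 8 genes was 1372 and 1334 in pools A and B of D0, 843 and 792 on D7, 713 and 753 on D11, 476 and 409 on D13 and 421 and 493 on D15. The lowest 10% of cells lay below 244 and 214 in pools A and B of D13 and below 193 and 215 on D15. The highest 10% lay above 1244 and 787 on D13 and above 805 and 907 on D15, with pool A of D13 apart from the other 3. The spread includes the counting error of single cells.

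Cells were also split by markers that hold none of the 8 genes. After thinning to 10000 UMIs, a cell with a UMI of at least 50% of the 19 pluripotency markers and fewer than 50% of the 20 somatic markers was called pluripotency-marker-high, and the reverse somatic-marker-high. These are ranges of a score and not cell types: 9139 and 25398 cells fell into them, 7159 into neither, 161 reached both limits, 6312 lay within 1 marker of a limit, and 279 cells were too shallow. In the D9 to D15 pools, pluripotency-marker-high cells made up 26.1% and 32.8% of cells on D9 and 77.4% and 77.3% on D15. Their median share of somatic markers with a UMI was 0.15 to 0.35, and that of pluripotency markers in somatic-marker-high cells was 0.0526 to 0.263. The former were deeper, at a median of 31905 to 73073 UMIs against 20866 to 48922.

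Within the same 8 pools of D9 to D15, 3 of the 8 genes were lower in pluripotency-marker-high than in somatic-marker-high cells, with the pool as a block, against 34.3% of all genes tested called lower (71.7% in either direction), a share close to that of the 8 genes. INSIG1 differed by −0.58 (SE 0.067, adjusted p = 2.1e-05), IDI1 by −0.59 (SE 0.11, adjusted p = 6.9e-04) and HMGCS1 by −0.39 (SE 0.09, adjusted p = 0.0025), and each was lower in 8 of 8 pools. DHCR7 was higher in 7 of 8 pools but by less than the limit on the fold, at 0.20 (SE 0.054, adjusted p = 0.0055). SQLE, SC5D and SREBF2 were higher in 4 of 8 pools and lower in the other 4, and FDFT1 was higher in 6. Without the block, 0 of the 8 genes were called, against 7132 of all 12794 genes tested. Of the 14 genes of dividing cells 13 were higher in pluripotency-marker-high cells and 0 lower, and the part of this in the result was not tested.

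In the pluripotency-marker-high cells of pools A and B, IDI1 was at 115 and 111 on D9, 84.6 and 116 on D11, 57.4 and 40.9 on D13 and 34.5 and 48.8 on D15, in CPM, against 155 and 171 on D9, 115 and 132 on D11, 144 and 82.5 on D13 and 53.9 and 71.6 on D15 in the somatic-marker-high cells. INSIG1 was at 35.3 and 34.4 on D9, 36.1 and 40.8 on D11, 21.7 and 18.6 on D13 and 18.6 and 23.6 on D15, in CPM, in the former and 57.8 and 62.0 on D9, 47.3 and 62.2 on D11, 38.4 and 26.7 on D13 and 29.96 and 33.7 on D15 in the latter. SC5D went from 63.9 and 60.1 CPM on D9 to 17.5 and 23.2 on D15 in pluripotency-marker-high cells, and from 45.6 and 47.2 to 25.3 and 25.8 in somatic-marker-high cells. For these 3 genes the D15 pools were below the D9 pools in both kinds of cell.

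The decline was also measured within each kind of cell. In somatic-marker-high cells, 5 of the 8 genes were lower on D11 to D15 than on D3 to D7, against 13.9% of all genes tested called lower and 30.5% in either direction: DHCR7 by −1.36 (SE 0.22, adjusted p = 2.5e-04), INSIG1 by −1.21 (SE 0.13, adjusted p = 9.1e-06), FDFT1 by −0.77 (SE 0.13, adjusted p = 4.8e-04), IDI1 by −0.77 (SE 0.20, adjusted p = 0.0069) and HMGCS1 by −0.64 (SE 0.15, adjusted p = 0.0037). The number called was 3 without pool A of D5, pool B of D7, pool A of D11 or either pool of D15, of which pool A held 32 such cells. In these runs 2759 to 3469 of all genes were called, against 3898 with all pools. In the same comparison 12 of the 14 genes of dividing cells were called lower and 0 higher, with a median log2 fold change of −1.18, and the part of this in the result was not tested. In pluripotency-marker-high cells, 0 genes were called between D9 and D11 to D15 by edgeR, against 8.27% of all genes tested. DESeq2 called 5, against 17.1% of all genes, and 6 had an unadjusted p below 0.05, against 37.3%, the lowest adjusted p being 0.010 for IDI1 and SC5D. Between D9 and D11 and D13 and D15, the step chosen after the values were seen, 5 genes were called lower in pluripotency-marker-high cells, against 3.08% of all genes tested called lower and 7.28% in either direction. These were IDI1 at −1.21 (SE 0.18, adjusted p = 0.0027), SC5D at −1.06 (SE 0.19, adjusted p = 0.0074), HMGCS1 at −0.90 (SE 0.13, adjusted p = 0.0030), INSIG1 at −0.81 (SE 0.14, adjusted p = 0.0062) and FDFT1 at −0.79 (SE 0.14, adjusted p = 0.0069). Leaving out 1 pool moved this number between 0, without either pool of D9, pool B of D11 or pool A of D15, and 6, and it was 1 without pool A of D11 or pool B of D15. In the runs with 0 or 1 called, 217 to 373 of all genes were called, against 932 with all pools. The mitochondrial share was not used as a covariate in the fits of the kinds of cell, and its part in these calls was not tested. In somatic-marker-high cells 1 was called in this step, INSIG1 at −0.83 (SE 0.16, adjusted p = 0.0095), against 0.789% of all genes called lower and 1.90% in either direction. The number was 0 with any of 13 of the 16 pools left out, with 61 to 219 of all genes called, against 243 with all pools. The step was not shown to differ between the kinds of cell: 0 of the 8 genes were called by edgeR for the difference, against 0.00782% of all genes tested, and 3 had an unadjusted p below 0.05, against 22.6%.

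**Figure D4:**
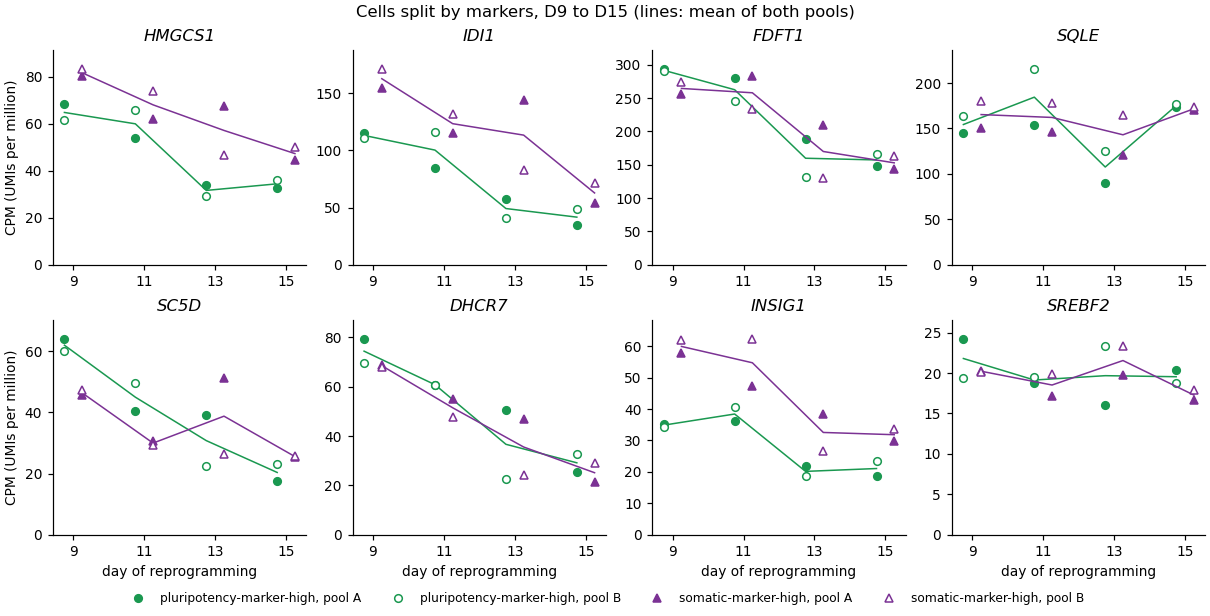
CPM of each gene in pluripotency-marker-high cells (circles) and somatic-marker-high cells (triangles) of the pools of D9 to D15, pool A filled, pool B open, with the mean as a line. HMGCS1, IDI1 and INSIG1 are lower in pluripotency-marker-high cells in all 8 pools. HMGCS1, IDI1, FDFT1, SC5D, DHCR7 and INSIG1 are lower on D15 than on D9 in both kinds of cell.

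Most other enzymes of the pathway were lower as well. Of 13 other sterol enzymes, all tested, 10 were called lower and 0 higher between D3 to D7 and D11 to D15, against 23.0% of all genes tested called lower, with a median log2 fold change of −0.87 against −0.019 over all genes tested. They were MVD (−1.21), MVK (−1.16) and PMVK (−0.37) of the mevalonate steps, ACAT2 (−0.87), FDPS (−0.97), LSS (−1.05), which closes the sterol rings, and NSDHL (−0.996), MSMO1 (−0.77), EBP (−0.66) and TM7SF2 (−0.47) of the later steps. FDPS, farnesyl diphosphate synthase, was at 1180.2 and 1077 CPM on D0, 860 and 799.7 on D3 and 439 and 396 on D5. It was at 479.9 and 399 on D7 and 226 and 255 on D15. CYP51A1, LBR and HSD17B7 were not called. Of the 10, TM7SF2 and MSMO1 lay nearest to the limit of 0.01, with adjusted p of 0.0066 and 0.0070 (edgeR). The mitochondrial share was not used as a covariate in the counts of this list or the lists below, and its part was not tested. From D0 to D15, 11 of the 13 were called lower, against 26.7% of all genes tested, and from D9 and D11 to D13 and D15 it was 5 (ACAT2, MVD, FDPS, NSDHL and HSD17B7), against 7.51%. From D3 to D5, before the change of medium, the 13 had a median log2 fold change of −0.63. FDPS (−1.04) and EBP (−1.05) were called lower in that step, against 0.360% of all genes tested. From D7 to D11 the median was −0.34, and 0 of the 13 were called, against 3.88% of all genes called lower.

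Of 12 genes of sterol sensing and uptake, 3 were called lower and 2 higher across the change of medium, close to the 45.8% of all genes tested called, with a median of −0.31. MYLIP, a ubiquitin ligase of lipoprotein uptake and a target of the oxysterol receptors LXR, was at 4.76 and 4.62 CPM on D7 and 34.2 and 29.6 on D15. Between D3 to D7 and D11 to D15 its log2 fold change was 2.83 (SE 0.15, adjusted p = 4.0e-09). NPC2, which carries cholesterol out of lysosomes, was higher as well in this comparison, by 0.98 (SE 0.091, adjusted p = 1.2e-06). LPIN1 (−1.86), SCARB1 (−0.92) and STARD4 (−0.37) fell.

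Among 10 genes of sterol storage, export and oxysterol response, 8 were tested, 2 rose and 3 fell, against 45.8% of all genes tested called. APOE, the apolipoprotein of lipid export, was at 10.9 and 8.68 CPM on D3, 201 and 187 on D7, 1538 and 1245 on D11 and 1511 and 1705 on D15. Between D3 to D7 and D11 to D15 its log2 fold change was 4.85 (SE 0.12, adjusted p = 3.6e-11). CH25H, cholesterol 25-hydroxylase, was at −3.31 (SE 0.32, adjusted p = 1.4e-06), and SOAT1, which esterifies cholesterol for storage, at −1.66 (SE 0.15, adjusted p = 7.6e-07). Of 10 tested genes of fatty acid synthesis 3 were lower, with ME1 at −1.26, FADS2 at −1.02 and ACSS2 at −0.57, and 1 was higher, a share no larger than that of all genes. Of 9 genes of the isoprenoid branches 1, PDSS1, was lower (−0.66) and 0 higher, and of the 14 genes of dividing cells 3 were higher and 1 lower (TYMS). From D0 to D15, 6 of the fatty acid genes were lower and 1 higher, and 9 of the dividing-cell genes were higher and 1 lower, against 53.4% of all genes called. The medians of the fatty acid, isoprenoid and dividing-cell lists across the change of medium were −0.075, 0.0082 and 0.19.

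Over the 16 pools, the log2(CPM + 1) values of HMGCS1, IDI1, FDFT1, DHCR7 and INSIG1 correlated with one another at Pearson's r of 0.819 (INSIG1 and IDI1) to 0.956 (DHCR7 and IDI1). SC5D and INSIG1 had r of −0.0357, SC5D and SQLE −0.395, and SREBF2 reached at most 0.576, with HMGCS1. These points share day, library and depth and are given as a description. Against the mean of the standardized values of the 8 genes, the most similar of 7044 other genes at a mean of 10 CPM or more were CALHM2, ARPC1A, H1F0, ANXA4, ETHE1, CAT, TRIOBP, CFL2, MMP24-AS1 and IER5, with r of 0.961 to 0.975, and none of them is a sterol enzyme. Of the other sterol enzymes at that level MVD, MSMO1 and MVK were highest, with r of 0.926, 0.920 and 0.919 and ranks 116, 154 and 159. The rest went from 0.899 (NSDHL, rank 284) down to 0.70 (HSD17B7, rank 1345) and −0.0501 (LBR, rank 3588). Among the genes compared, 275 had r above 0.9.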

How the data were processed

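Per the labels, 10x 3′ libraries were processed by the authors with Cell Ranger 2.2 on GRCh38, and the deposited values are raw UMI counts of 33694 genes per cell in 22 libraries. Cells were kept at 1000 genes or more and a mitochondrial share of at most 10%, which left 41975 of 44197 barcodes. Aliquots of a pool were summed to 1 pool, and 12794 genes with a UMI in at least 5% of cells were tested. All 16 pools entered 1 fit of edgeR 4.0.16 (quasi-likelihood, TMM), with DESeq2 1.42.0 as an alternative. The fits were tested on simulated data. Doublets were not called. The alternatives were another scaling, no filter, thinned sums, all barcodes, the pool letter as a block, other marker limits, and each pool left out. The 8 genes, the gene lists and the markers were chosen with earlier results of these data known. The steps around D11, the class limits, the single-aliquot runs, the mitochondrial covariate, the fit of the kinds of cell with no block, and leaving out pool B of D3 and of D13, which were seen to deviate, were chosen after seeing the data. The text names the 8 genes, genes of the sterol enzyme and uptake lists, at most the 3 called genes of each other list with the largest fold change, and the 10 genes with the highest Pearson's r. Of the pathway lists, 3 genes are not reported here and are in none of the list counts or medians.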

Additional observations from a re-analysis of the deposited data

How the results depend on the processing

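The 5 genes lower on D11 to D15 than on D3 to D7 were called under every alternative run except the mitochondrial covariate, which called INSIG1 and FDFT1 of these 5, and SQLE (3 in all), and every count not given here stayed within 1.5 times of its value. Over all alternatives, 1216 values of single genes kept their direction and side of the threshold, 98 lost a call, 34 gained one and 36 changed sign. The pool letters were not used as a pairing in the main fit. Over 28 pairs of days the deviations of equal letters correlated at −0.447 to 0.817, with a median near 0. Such a median cannot exclude that pools of equal letter shared a deviation on some days. With the letter as a replicate block the numbers called were 5 across the medium change, 5 from D0 to D15, 4 from D9 and D11 to D13 and D15, and 0 for each adjacent step, and SC5D across the medium change was 0.00023. The counts over all genes of that fit are not given here, so these numbers have no share beside them. With no replicate block, 0 of the 8 genes differed between the kinds of cell, against 7132 of all 12794, and SQLE was 0.0096. From D0 to D15, 8 genes were called with only the pools compared, against 9462 of all genes. From D0 to D3, DESeq2, a threshold of 0.05 on the adjusted p whatever the fold, and the mitochondrial covariate each called 2, against 4367, 5157 and 5181 of all genes. From D3 to D5 these 3 settings, no filter, aliquot 2 only, and leaving out pool B of D3 and of D13 together each called 1, against 291 to 910 of all genes. That last setting also called 1 higher from D7 to D9, and 1 higher and 2 lower from D13 to D15, against 1876 and 2431. From D5 and D7 to D9 and D11, aliquot 2 only called 0, against 2648. From D9 and D11 to D13 and D15, where 2008 of all genes were called with all pools, 6 of the 8 were called with DESeq2, no filter or the looser threshold, against 3102, 4570 (of 29281 genes) and 3721. It was 5 without pool B of D3 and of D13, against 2189, and 0 with aliquot 1 only or the mitochondrial covariate, against 1194 and 1435. With only the pools compared it was 2, and the count over all genes in that run is not given here. The difference of these steps gave 1 with no filter, the looser threshold, or without pool B of D3 and of D13, against 1828, 1494 and 1299 of all genes. In pluripotency-marker-high cells from D9 to D11 to D15, DESeq2 called 5, strict limits 1 and loose limits 2, against 2189, 768 and 1408. In somatic-marker-high cells from D9 and D11 to D13 and D15, DESeq2 called 3 and loose limits 0, against 771 and 332.

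With each pool left out in turn, the number called ranged from 0 to 3 from D0 to D3, 0 to 1 from D5 and D7 to D9 and D11, 0 to 6 from D9 and D11 to D13 and D15, 0 to 1 for the difference of these steps, 3 to 5 in somatic-marker-high cells across the medium change, 0 to 5 in pluripotency-marker-high cells from D9 to D11 to D15, 0 to 6 in these cells and 0 to 2 in somatic-marker-high cells from D9 and D11 to D13 and D15. Over all genes, 2409 were called in the run with 3 from D0 to D3, against 3280 with all pools. From D5 and D7 to D9 and D11 it was 1846 to 2151 in the runs with 0, against 2715. For the difference of steps it was 1168 in the run with 1, against 827. In pluripotency-marker-high cells from D9 to D11 to D15 it was 2161 and 3680 in the runs with 5, against 1058. In somatic-marker-high cells it was 498 in the run with 2, against 243. Log2 fold changes near 0 changed sign. SC5D across the medium change was 0.0024 with DESeq2 or its size factors, 0.18 with aliquot 2 only, 0.38 with the mitochondrial covariate and −0.15 to 0.13 with a pool left out, and in somatic-marker-high cells 0.077 with loose limits and −0.20 to 0.11. From D0 to D15 SC5D was 0.29 with the covariate. SREBF2 from D9 and D11 to D13 and D15 was −0.041 with no filter, −0.046 without pool B of D3 and of D13, and −0.046 to 0.24 with a pool left out. Its step was 0.028 with loose limits and −0.21 to 0.11 in pluripotency-marker-high cells, and 0.024 with DESeq2, 0.047 with strict and 0.014 with loose limits and −0.084 to 0.078 in somatic-marker-high cells. SQLE ranged from −0.17 to 0.037 from D5 and D7 to D9 and D11, from −0.063 to 0.034 between the kinds of cell, and from −0.20 to 0.064 in somatic-marker-high cells from D9 and D11 to D13 and D15. The causes were not tested. With 2 pools per day the SE for adjacent days was 0.19 to 0.37 on the log2 scale, so that many changes of about 2-fold in 1 interval would not be called.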
